A study of Mus musculus with 18 samples.

Results

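The EGR and KLF transcription factors were followed through 18 RNA-seq libraries of bone marrow-derived macrophages (BMDMs). The members were chosen by gene symbol, and all 10 were found among the 24485 genes of the deposited tables: Egr1, Egr2, Egr3, Klf2, Klf3, Klf4, Klf6, Klf7, Klf10 and Klf13. The cells came from 12-week-old male mice on the C57BL/6J background that lack interleukin 10 (Il10-/-), with 3 mice named in the study's methods, so no group made its own IL-10. The 6 groups of 3 libraries were Unstimulated, JQ1, IL-10, LPS, LPS + JQ1 and LPS + IL-10. Cells received the BET bromodomain inhibitor (+)-JQ1 at 500 nM, IL-10 at 10 ng/mL or neither for 12 h, and then lipopolysaccharide (LPS), a bacterial cell wall component, at 50 ng/mL or saline for 4 h. The labels call the controls untreated, whereas the methods name a vehicle for the pretreatment. The comparisons address how BET inhibition and IL-10 alter the macrophage response to LPS.

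EGR and KLF proteins are zinc finger transcription factors that bind GC-rich DNA. EGR genes are immediate-early genes, switched on within minutes of growth factor or stress signalling through the ERK kinases and the serum response factor (SRF), which binds the CArG box. KLF genes have more varied roles. Klf2 and Klf4 are switched on through the ERK5 kinase and MEF2 factors and are known to restrain inflammatory activation of myeloid and endothelial cells, while Klf6 is known to support it in macrophages. BET proteins read acetylated histones at active promoters and enhancers, and (+)-JQ1 displaces them.

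The sequences shown are promoter stretches of Egr2, Klf2 and Klf4. Among the members with promoter windows these had the largest fall and the 2 largest rises with (+)-JQ1 without LPS. Klf3, Klf7 and Klf13 also moved in that comparison and are not shown. They were taken from RefSeq promoter windows (250 bases before to 50 after each transcript start, GRCm38.p6) and placed on mm9 by exact match. Such windows were used for 7 of the 10 members, 11 windows in all, each matching mm9 at 1 place. In the Klf2 and Klf4 stretches, which end just before the annotated gene, capitals mark the GC box GGGGCGGGG on either strand and, in Klf2 alone, a MEF2 box. In the 30-base Egr2 stretches capitals mark a CArG box.
Klf2 promoter, chr8:74842711-74842931, plus strand: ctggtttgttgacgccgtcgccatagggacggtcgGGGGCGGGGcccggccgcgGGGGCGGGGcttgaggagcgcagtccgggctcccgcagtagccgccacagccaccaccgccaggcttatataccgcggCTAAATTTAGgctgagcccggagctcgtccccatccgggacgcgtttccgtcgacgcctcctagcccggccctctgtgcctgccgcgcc
Klf4 promoter, chr4:55545348-55545597, minus strand: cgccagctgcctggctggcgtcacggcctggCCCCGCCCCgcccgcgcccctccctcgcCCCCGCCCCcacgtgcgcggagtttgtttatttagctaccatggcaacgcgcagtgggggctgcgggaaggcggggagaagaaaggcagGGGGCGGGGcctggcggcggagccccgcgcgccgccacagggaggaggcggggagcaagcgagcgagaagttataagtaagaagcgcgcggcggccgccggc
Egr2 CArG box 1, chr10:67000232-67000261, plus strand: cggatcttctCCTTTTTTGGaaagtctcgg
Egr2 CArG box 2, chr10:67000535-67000564, plus strand: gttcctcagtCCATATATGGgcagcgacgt

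Of 32851 promoter windows of this length, 11.4% held the GC box, 3.19% a MEF2 box, 1.63% a CArG box and 5.55% the EGR motif GCGNGGGCG, each searched on both strands. The GC box stood 2 times in the Klf2 window, 3 times in that of Klf4, 1 time each in those of Klf3 and Klf13 and 1 time in 1 of the 5 Egr2 windows. The EGR motif stood 1 time in the Klf2 window, 2 times in that of Klf4 and 3 times in that of Klf3, and in each window at least 1 of these sites overlapped a GC box. The windows of Klf6 and Klf7 held none of these 4 motifs. Klf2 and Klf4 windows contained 69.3% and 74.3% G and C. These matches describe the letters of the windows and were not tested as binding sites.

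The cells carried the macrophage profile that the labels name. All 7 macrophage markers found, among them Csf1r, Adgre1 and Lyz2, were above 1 TPM in every group, and their summed level was 14070 to 29055 TPM per library. Summed markers of T and B cells, neutrophils, dendritic cells, mast cells, fibroblasts, endothelial cells and erythroid cells reached at most 10.2 TPM in any library, and Ly6g and Mcpt4 were at 0 in all 18. Total expected counts ran from 6781952 to 28289498 per library. LPS libraries differed from the others in composition. The median fold-change of 11390 expressed genes after LPS was -0.03 on the log2 scale with median-of-ratios size factors, which set the values below, and -0.96 with scaling to total counts. Small rises with LPS can therefore turn into falls with the scaling, and the members to which this happens are named. In bulk RNA, fewer cells that carry a transcript and less of it per cell cannot be told apart.

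The members spanned more than 3 orders of magnitude per unit length. Mean abundance over the 18 libraries was 265 TPM for Klf6, 66.3 for Klf3, 49.4 for Klf13, 22.8 for Klf7, 14.3 for Klf10, 12.2 for Klf2, 10.8 for Egr1, 7.47 for Klf4, 6.61 for Egr2 and 0.233 for Egr3. Klf6 was thus the most abundant member, and Egr3 was barely measured, with 3 counts or fewer in 5 libraries. Between the highest and the lowest group mean, Klf7 spanned 6.59 on a log2(normalised count + 1) scale, Klf10 spanned 3.69 and Klf4 only 1.08.

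**Figure D1:**
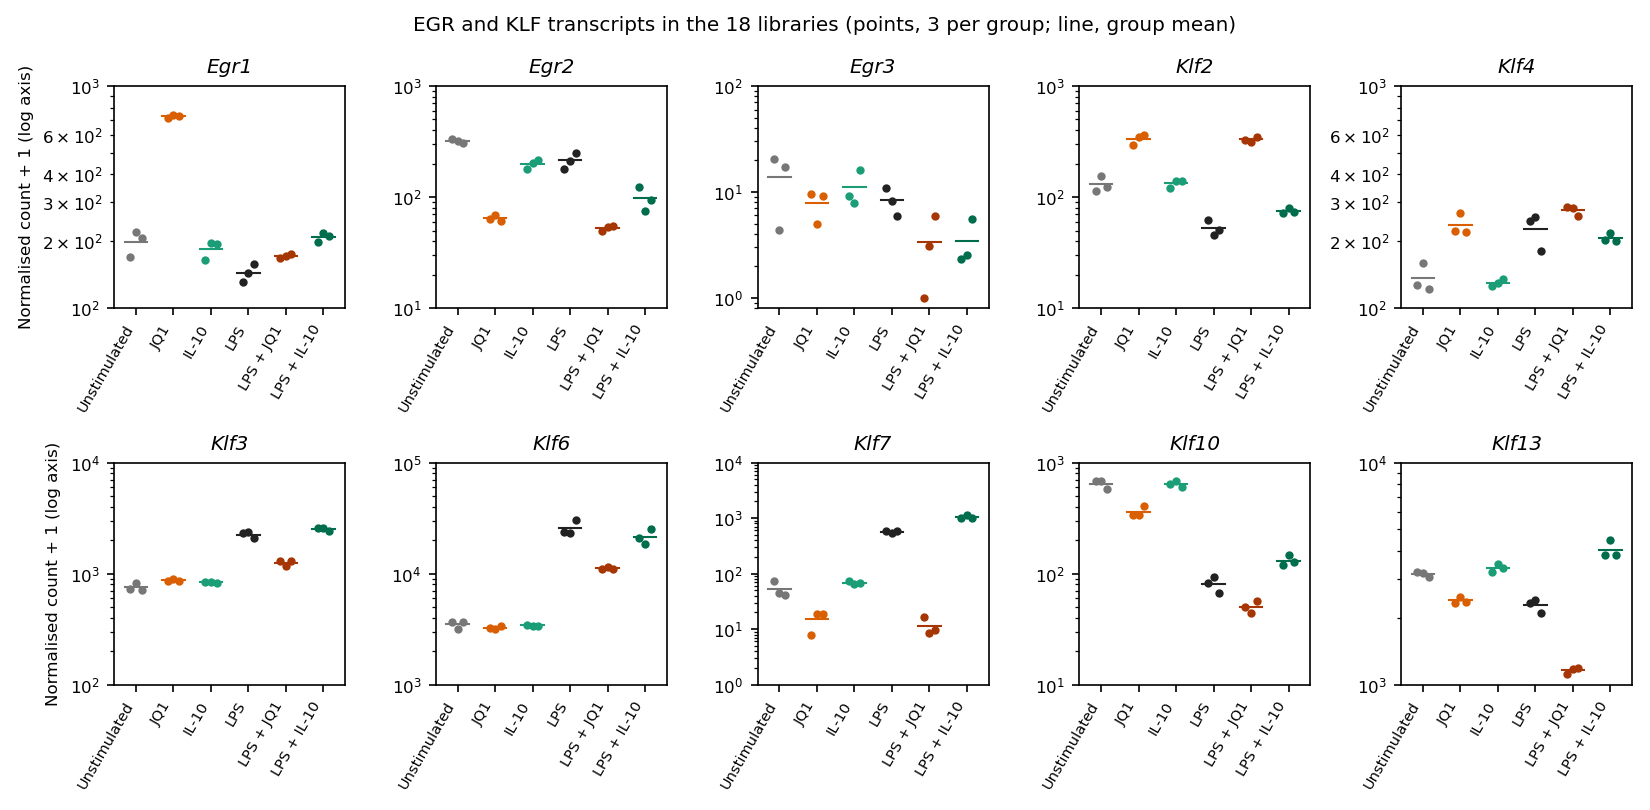
Normalised count + 1 (log axis) of each EGR and KLF member in the 6 groups, with 1 point per library (3 per group) and a line at the group mean. Egr1 is high in the JQ1 group alone, Klf2 is high in both groups given (+)-JQ1, and Klf7 is high with LPS and with LPS + IL-10 and low with LPS + JQ1.

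LPS moved most of the family, as it moved most genes. All LPS values are from 4 h after its addition, and earlier changes were not measured. With the DESeq2 Wald test and Benjamini-Hochberg adjustment, 4 members rose and 5 fell, where 64.5% of the 14965 genes tested were called, 31.6% higher and 32.9% lower. With total-count scaling 3 members rose and 6 fell, while the higher share of all calls went from 49% to 20.1%. That scaling shifted the LPS value of all 10 members by -0.93 on the log2 scale, and by -0.83 in IL-10-pretreated cells. The LPS values of Egr1, Egr2, Klf2, Klf13 and Klf3 were then -1.37, -1.5, -2.24, -1.40 and 0.66. (+)-JQ1 treatment without LPS raised 4 members and lowered 4, where 45.7% of genes tested were called, 21.9% higher and 23.7% lower. Total-count scaling gave 3 raised and 5 lowered, with the higher share of all calls at 26.8% in place of 48%. IL-10 without LPS lowered 1 member, Egr2, where 2.81% of genes tested were called, 1.8% higher and 1.01% lower. During LPS, (+)-JQ1 raised 1 member and lowered 6, where 57.3% of genes were called, 24.4% higher and 32.9% lower. With total-count scaling it raised 3 (Klf2, Egr1 and Klf4) and lowered 5, and the higher share of all calls went from 42.5% to 64.9%. IL-10 during LPS raised 5 of the 9 members tested and lowered 1, where 17.2% of genes were called, 8.38% higher and 8.81% lower. With total-count scaling 6 were raised and 1 lowered, and the higher share went from 48.7% to 71.1%. The members' median log2 fold-change was -0.91 for (+)-JQ1 during LPS, beside -0.11 over all genes tested, and 0.53 for IL-10 during LPS, beside -0.02. These comparisons share libraries, because LPS served as the control of both pretreatments and Unstimulated cells as the control of 3 comparisons.

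**Figure D2:**
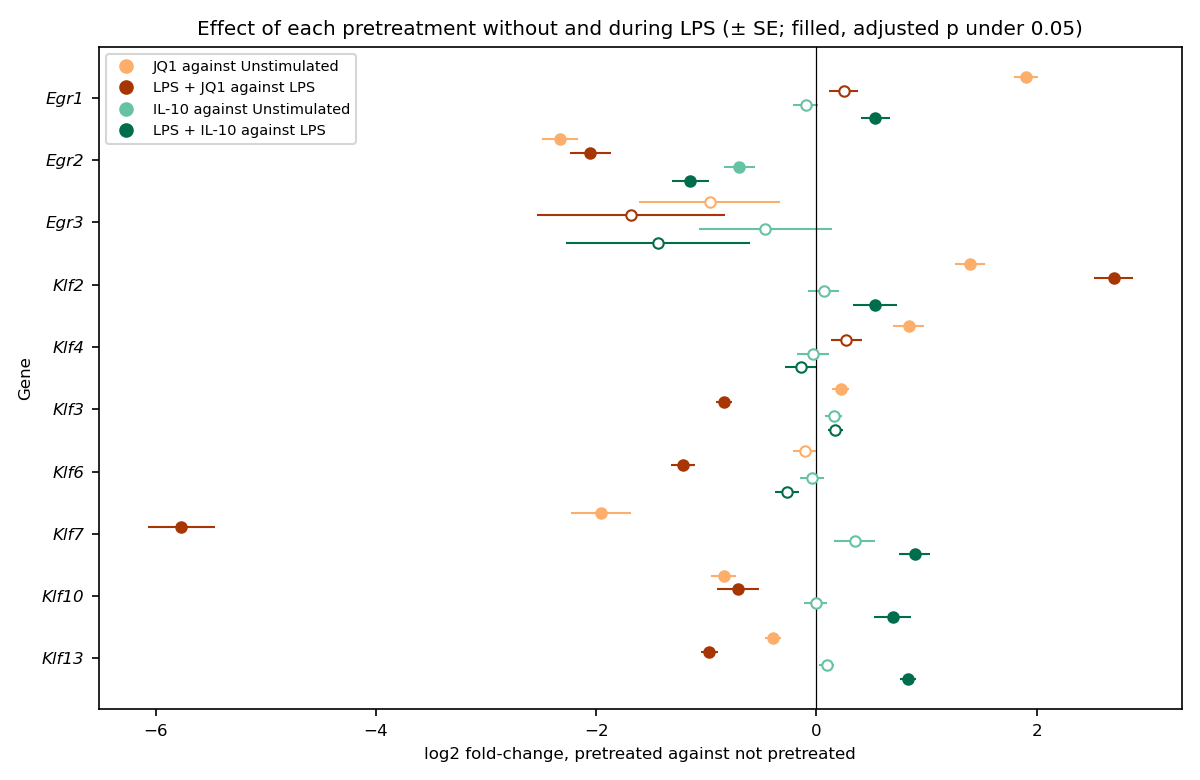
log2 fold-change (DESeq2) ± SE of each member for (+)-JQ1 and IL-10 without LPS and during LPS, with filled points at an adjusted p under 0.05. Klf7 lies at -5.76 for (+)-JQ1 and at 0.89 for IL-10 during LPS, and Egr2 lies below 0 in all 4 comparisons.

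Egr1 and Egr2, close relatives, moved in opposite directions under (+)-JQ1. Egr1 is the founding immediate-early member of its family (chr18:35020861-35024638, plus strand). Its normalised counts were 168, 220 and 205 in the 3 Unstimulated libraries and 719, 738 and 732 in the JQ1 libraries, so the groups were far apart. The fold-change was 1.90 on the log2 scale (SE 0.11, DESeq2 adjusted p = 2.40e-67), a 3.74-fold rise. With IL-10 the counts were 164, 196 and 193, within the range of Unstimulated cells apart from the lowest library.

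The rise of Egr1 was much smaller with LPS present. Counts were 130, 144 and 157 with LPS and 168, 171 and 175 with LPS + JQ1, which gave a log2 fold-change of 0.25 (SE 0.13, DESeq2 adjusted p = 0.102). The ranges did not overlap, and edgeR called the difference (0.35, adjusted p = 0.00898), as did total-count scaling and limma on TPM. The (+)-JQ1 effect differed between the LPS and no-LPS settings, with an interaction of -1.65 on the log2 scale (SE 0.17, DESeq2 adjusted p = 1.86e-20), or -1.10 with total-count scaling. In JQ1-pretreated cells the LPS response of Egr1 was -2.09 on the log2 scale (SE 0.11, adjusted p = 5.54e-75 by DESeq2), against -0.44 (SE 0.13, adjusted p = 0.00128) without pretreatment.

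IL-10 raised Egr1 during LPS and not detectably without it. LPS + IL-10 libraries held 198, 217 and 210 counts, all above the LPS libraries, with a log2 fold-change of 0.53 (SE 0.13, DESeq2 adjusted p = 6.61e-04). The interaction of LPS with IL-10 was 0.63 (SE 0.17, DESeq2 adjusted p = 0.00670). The Egr1 gene overlaps Gm17507 on the opposite strand in the GENCODE annotation, at its 3′ end only (chr18:35024439-35024638). RSEM was run with its default parameters, which do not use strand, so reads from that shared stretch could not be told apart.

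Egr2, also known as Krox20, is used as a marker of macrophages that are not in an inflammatory state (chr10:66998223-67004936, plus strand). It was highest in Unstimulated cells, at 333, 316 and 306 counts, and every library of the other groups lay lower. The JQ1 libraries held 63.1, 68.0 and 59.5 counts, a log2 fold-change of -2.33 (SE 0.17, DESeq2 adjusted p = 3.40e-43). The IL-10 libraries held 178, 201 and 213 counts, a log2 fold-change of -0.70 (SE 0.14, DESeq2 adjusted p = 1.00e-04). Egr2 was the single member that IL-10 alone moved.

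LPS lowered Egr2 as well, to 180, 212 and 250 counts (log2 fold-change -0.57, SE 0.15, DESeq2 adjusted p = 1.82e-04). Both pretreatments lowered it further during LPS. LPS + JQ1 libraries held 48.6, 52.7 and 54.2 counts (-2.05, SE 0.18, DESeq2 adjusted p = 1.15e-27), and LPS + IL-10 libraries held 123, 74.5 and 92.9 (-1.15, SE 0.17, DESeq2 adjusted p = 2.84e-10). (+)-JQ1 gave the lower level of the pair, by -0.91 (SE 0.20, DESeq2 adjusted p = 1.33e-05). The loss under (+)-JQ1 did not differ detectably with LPS, the interaction being 0.27 with a 95% interval of -0.21 to 0.76. With total-count scaling that interaction was 0.83 and passed the test (DESeq2 adjusted p = 0.00214). The 2 CArG boxes printed above lie inside the annotated Egr2 gene, upstream of its later transcript starts. The window at the first start (chr10:66997997-66998296) held no CArG box, and the Egr1 promoter was not used here.

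Egr3, an EGR gene best known in neurons and lymphocytes, was near the limit of detection. Its normalised counts ran from 3.4 to 19.3 in Unstimulated cells and from 0 to 4.9 in LPS + JQ1 cells, and the ranges of most groups overlapped. Neither LPS nor (+)-JQ1 nor IL-10, each against Unstimulated cells, gave a change of Egr3 that passed the test, although total-count scaling called it lower with LPS (DESeq2 adjusted p = 0.00776). The difference of LPS + JQ1 from LPS did not pass either, but it did without LPS + JQ1 replicate 3 (-2.77, DESeq2 adjusted p = 0.0421), and DESeq2 gave that of LPS + IL-10 from LPS no adjusted p. The difference of LPS + IL-10 from IL-10 cells, -1.88 (SE 0.79, DESeq2 adjusted p = 0.0270), lost its call when any of 3 single libraries was left out (IL-10 replicate 3, LPS + IL-10 replicate 1 or 2), with an adjusted p up to 0.120 by DESeq2.

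Klf2 was high in both groups given (+)-JQ1, with LPS or without it. Klf2 (chr8:74842932-74845555, plus strand) encodes a factor that keeps endothelial and myeloid cells quiescent. Unstimulated libraries held 113, 154 and 121 counts and JQ1 libraries 291, 345 and 360, a log2 fold-change of 1.39 (SE 0.14, DESeq2 adjusted p = 8.56e-23). LPS lowered Klf2 to 60.8, 44.5 and 49.1 counts (-1.31, SE 0.18, DESeq2 adjusted p = 2.13e-12). LPS + JQ1 libraries held 328, 315 and 347 counts, inside the range of JQ1 alone.

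The difference of LPS + JQ1 from LPS was 2.70 (SE 0.17, DESeq2 adjusted p = 2.18e-52), a 6.49-fold difference. No other member was called higher in that comparison by DESeq2 with median-of-ratios factors. Egr1 and Klf4 were also called higher by edgeR, by limma on TPM and with total-count scaling (0.62 and 0.65), and Klf4 with the replicate number as a block. The LPS response of JQ1-pretreated cells was -0.01, with a 95% interval of -0.26 to 0.24, and the interaction of LPS with JQ1 was 1.30 (SE 0.22, DESeq2 adjusted p = 3.81e-08). With total-count scaling the LPS response in those cells was -0.38 (DESeq2 adjusted p = 0.00307). The IL-10 effect rested on a weak call. LPS + IL-10 libraries held 70.4, 79.0 and 72.1 counts, all above LPS (0.53, SE 0.20, DESeq2 adjusted p = 0.0442), and this call was lost in 5 of the 6 fits that left out a library of either group, with an adjusted p up to 0.219.

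Klf4 (chr4:55540013-55545347, minus strand), a pluripotency factor that also supports alternative activation of macrophages, moved least of the 9 well-measured members. Its counts were 126, 159 and 121 in Unstimulated cells and 222, 266 and 220 with (+)-JQ1, a log2 fold-change of 0.84 (SE 0.14, DESeq2 adjusted p = 3.22e-08). LPS gave 245, 258 and 179 counts (0.78, SE 0.15, DESeq2 adjusted p = 1.96e-07), but this direction depended on the scaling: the value was -0.14 with total-count scaling and -0.03 with limma on log2(TPM + 1). In TPM the Klf4 means were 6.47 ± 0.75 in Unstimulated and 6.32 ± 0.85 in LPS cells (SD, n = 3).

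With LPS + JQ1, Klf4 reached 284, 280 and 260 counts, above all LPS libraries, yet the difference of 0.27 (SE 0.14) had a DESeq2 adjusted p of 0.0800. It was 0.0430 with the replicate number as a block and 0.0125 with edgeR. IL-10 did not detectably move Klf4 without LPS (-0.03, 95% interval -0.32 to 0.25) or during LPS (-0.14, 95% interval -0.42 to 0.14). Klf2 and Klf4 thus both rose with (+)-JQ1 in unstimulated cells, while Klf2 fell with LPS under each scaling and Klf4 did not.

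Klf7 showed the widest range of the family. Klf7 (chr1:64076021-64168856, minus strand) is best known from neuronal development and is the closest relative of Klf6. Unstimulated libraries held 73.3, 44.0 and 40.9 counts and LPS libraries 584, 542 and 587, a rise of 3.41 on the log2 scale (SE 0.17, DESeq2 adjusted p = 1.56e-83), or 2.48 with total-count scaling. LPS + JQ1 libraries held 15.5, 7.4 and 8.6 counts, below every Unstimulated library. The fold-change against LPS was -5.76 (SE 0.30, DESeq2 adjusted p = 4.03e-78), a 54.4-fold difference.

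(+)-JQ1 lowered Klf7 without LPS too, to 6.9, 17.7 and 17.4 counts (-1.96, SE 0.27, DESeq2 adjusted p = 1.14e-11). No LPS response was detected in JQ1-pretreated cells, where the value was -0.40 with a 95% interval of -1.12 to 0.33, and the interaction was -3.81 (SE 0.41, DESeq2 adjusted p = 5.11e-19). IL-10 had the opposite sign. LPS + IL-10 libraries held 1004, 1152 and 1021 counts, above all LPS libraries (0.89, SE 0.14, DESeq2 adjusted p = 5.42e-09), so that the gap between the pretreatments reached -6.66 (SE 0.30, DESeq2 adjusted p = 1.28e-104).

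IL-10 alone left Klf7 at 73.0, 64.5 and 65.6 counts (0.35, SE 0.19, DESeq2 adjusted p = 0.596), and without Unstimulated replicate 1, the highest of its group, the adjusted p was 0.0201. Whether IL-10 acted differently with LPS was not settled by the interaction (0.54, 95% interval 0.09 to 1.00, DESeq2 adjusted p = 0.173), which passed the test without Unstimulated replicate 3 (0.76, adjusted p = 0.0204). In GENCODE the Klf7 gene overlaps Gm17427 at its 3′ end and Gm13748 inside it, both on the opposite strand and neither counted under its own symbol. Reads from them could count as Klf7 only where they overlap its exons. Whole gene spans were compared, and overlap with exons was not checked.

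Klf6 carried the largest counts. Klf6 (chr13:5860735-5869639, plus strand) is known as an injury-response gene that co-activates NF-kB targets in macrophages. It stood at 3629, 3197 and 3686 counts in Unstimulated cells and at 23884, 23239 and 30406 with LPS, a 7.37-fold rise (log2 2.88, SE 0.11, DESeq2 adjusted p = 1.71e-152), which was 1.95 on the log2 scale with total-count scaling. With (+)-JQ1 and no LPS it stood at 3257, 3172 and 3361 counts, and no change was detected (-0.10, 95% interval -0.32 to 0.11), although total-count scaling called it lower (DESeq2 adjusted p = 0.0381). During LPS it lowered Klf6 to 10942, 11532 and 11048 counts (-1.21, SE 0.11, DESeq2 adjusted p = 7.46e-28). The LPS response was thus smaller but still present after (+)-JQ1 (1.78, SE 0.11, DESeq2 adjusted p = 2.75e-58).

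The interaction for Klf6 was -1.11 (SE 0.15, DESeq2 adjusted p = 1.13e-11), and it was -0.55 with total-count scaling. LPS + IL-10 libraries held 20966, 18401 and 25012 counts, which overlapped LPS. Their difference of -0.27 (SE 0.11) had a DESeq2 adjusted p of 0.0700, and of 0.0232 with the replicate number as a block.

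Klf3 (chr5:65194628-65221368, plus strand), a repressor that recruits CtBP, rose with LPS and was lower with (+)-JQ1 during LPS, as Klf6 was. It was 730, 824 and 704 counts in Unstimulated cells and 2305, 2345 and 2071 with LPS (1.59, SE 0.07, DESeq2 adjusted p = 5.01e-105). LPS + JQ1 libraries held 1288, 1167 and 1301 counts, between those groups (-0.84, SE 0.07, DESeq2 adjusted p = 1.09e-31). The interaction was -1.06 (SE 0.10, DESeq2 adjusted p = 2.97e-23). With total-count scaling these 2 values were -0.46 and -0.51. Without LPS the JQ1 libraries held 857, 894 and 854 counts (0.22, SE 0.07, DESeq2 adjusted p = 0.00918), a call that was lost when Unstimulated replicate 1 or 3 was left out (adjusted p = 0.0535 and 0.103) and that was 0.04 with total-count scaling. LPS + IL-10 libraries held 2597, 2557 and 2416 counts, all above LPS (0.17, SE 0.07, DESeq2 adjusted p = 0.0682). Total-count scaling (0.26), limma on TPM (0.28) and the fit with the lane called this difference. So did the fits without LPS replicate 2 or LPS + IL-10 replicate 3.

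**Figure D3:**
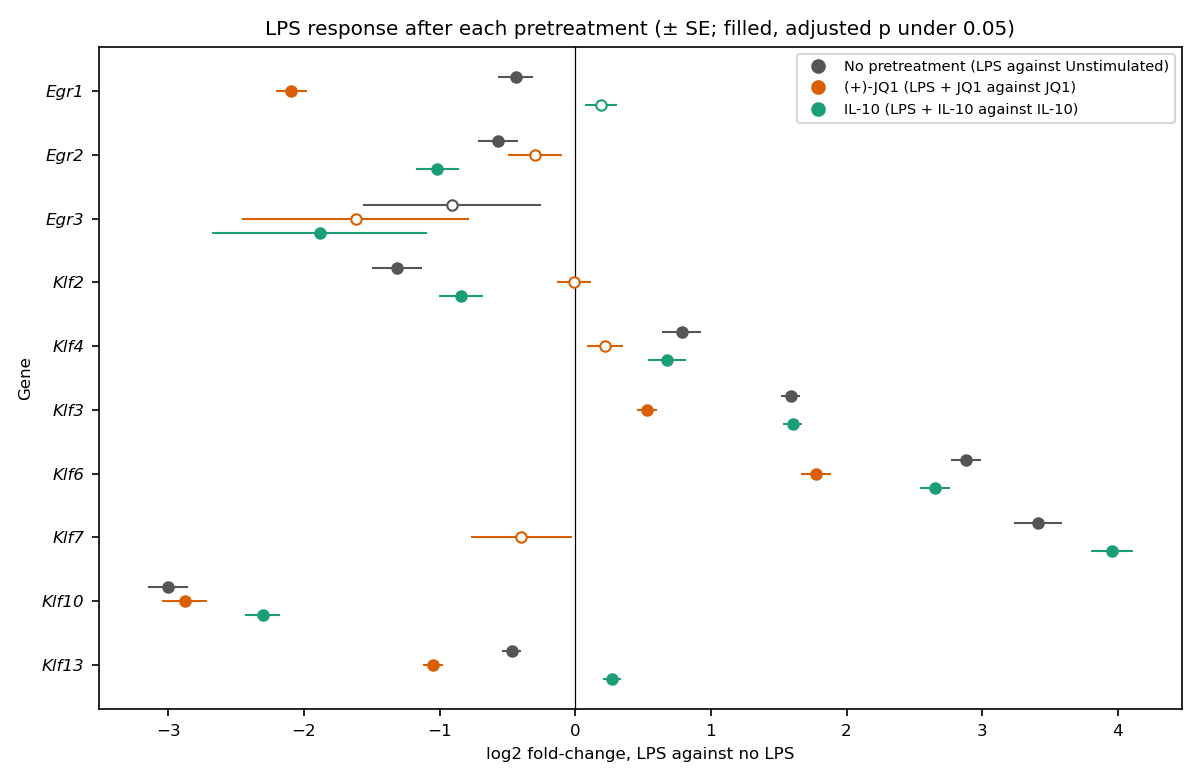
log2 fold-change ± SE of each member for LPS against no LPS in cells without pretreatment, with (+)-JQ1 and with IL-10 (DESeq2), with filled points at an adjusted p under 0.05. After (+)-JQ1 the value lies at -0.40 for Klf7 and -0.01 for Klf2, against 3.41 and -1.31 without pretreatment, while Klf10 lies between -3.0 and -2.31 in all 3 settings.

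Klf10 and Klf13 were lowered by LPS and by (+)-JQ1 alike. Klf10 (chr15:38221219-38230464, minus strand), an early gene of the TGF-beta pathway, fell from 675, 682 and 579 counts in Unstimulated cells to 80.6, 92.0 and 66.3 with LPS, an 8.03-fold fall (log2 -3.0, SE 0.15, DESeq2 adjusted p = 1.75e-92), which was -3.93 on the log2 scale with total-count scaling. (+)-JQ1 without LPS gave 338, 338 and 401 counts (-0.84, SE 0.11, DESeq2 adjusted p = 1.13e-12), and with LPS 48.6, 43.2 and 55.4 (-0.71, SE 0.19, DESeq2 adjusted p = 4.41e-04). The latter call was lost with total-count scaling (-0.34, adjusted p = 0.114) and in a fit to the LPS and LPS + JQ1 libraries alone (adjusted p = 0.0563).

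IL-10 left Klf10 at 639, 678 and 601 counts without LPS and held it at 118, 146 and 126 with LPS, above all LPS libraries (0.69, SE 0.16, DESeq2 adjusted p = 3.48e-04). The interaction was 0.70 (SE 0.20, DESeq2 adjusted p = 0.00763), and its adjusted p was 0.0702 without LPS replicate 3 and 0.0518 without LPS + IL-10 replicate 2.

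Klf13 (chr7:71031237-71083801, minus strand), known as an activator of the Ccl5 chemokine gene in T cells, had the widest gap between the pretreatments among the 3 most abundant members. It stood at 3222, 3168 and 3055 counts in Unstimulated, 2332, 2491 and 2360 in JQ1 and 3217, 3506 and 3348 in IL-10 cells. (+)-JQ1 lowered it (-0.39, SE 0.07, DESeq2 adjusted p = 1.67e-07). With LPS alone the counts were 2323, 2398 and 2096 (-0.47, SE 0.07, DESeq2 adjusted p = 1.58e-10).

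With LPS + JQ1 Klf13 fell to 1113, 1173 and 1190 counts (-0.97, SE 0.07, DESeq2 adjusted p = 1.40e-37), and with LPS + IL-10 it reached 3832, 4472 and 3852, above every other library (0.83 against LPS, SE 0.07, DESeq2 adjusted p = 5.39e-29). The gap between the pretreatments was -1.80 (SE 0.07, DESeq2 adjusted p = 6.63e-131). The interaction of LPS with IL-10 was 0.74 (SE 0.10, DESeq2 adjusted p = 3.30e-11). That with JQ1 was -0.58 (SE 0.10, DESeq2 adjusted p = 1.63e-07), and it was -0.02 with total-count scaling (adjusted p = 0.868), under which the difference of LPS + JQ1 from LPS was -0.60. The LPS response of IL-10-pretreated cells was 0.27 but -0.56 with total-count scaling and -0.45 with limma on log2(TPM + 1), so its direction depends on the scaling. In TPM the Klf13 means were 76.9 ± 2.7 in IL-10 and 56.5 ± 6.7 in LPS + IL-10 cells (SD, n = 3).

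The order of the groups by normalised count differed from member to member. For Egr1 JQ1 stood first and apart, and LPS + IL-10, Unstimulated, IL-10 and LPS + JQ1 followed with ranges that each overlapped the next. For Egr2 the order was Unstimulated, LPS, IL-10, LPS + IL-10, JQ1 and LPS + JQ1, and only LPS and IL-10 overlapped. For Klf2 the overlapping neighbours were JQ1 with LPS + JQ1 and IL-10 with Unstimulated, and for Klf7 they were IL-10 with Unstimulated and JQ1 with LPS + JQ1. LPS + JQ1 was the lowest group for Egr2, Klf7, Klf10 and Klf13 and the highest for Klf4. The order depended in part on the scaling. In TPM the Egr2 range of IL-10 (9.19 to 11.25) lay above that of LPS (4.84 to 7.81). Mean Egr1 was lower with LPS + IL-10 (6.25 TPM) than in Unstimulated (9.39) and IL-10 (9.10) cells. Klf4 was highest with JQ1, at 9.82 TPM against 9.51 with LPS + JQ1. In TPM LPS + JQ1 stayed the lowest group for Egr2, Klf7, Klf10 and Klf13.

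(+)-JQ1 and IL-10 were also set against each other during LPS. There 2 members were higher and 7 lower with (+)-JQ1 than with IL-10, where 55.3% of genes tested were called, 23.8% higher and 31.6% lower. With total-count scaling 2 were higher and 6 lower, and the higher share of all calls went from 42.9% to 61.2%. Klf2 (2.16, SE 0.16, DESeq2 adjusted p = 1.30e-40) and Klf4 (0.42, SE 0.14, DESeq2 adjusted p = 0.00629) were higher with (+)-JQ1. Klf6 was lower at -0.94, Klf3 at -1.01 and Klf10 at -1.41, besides Egr2, Klf7 and Klf13 above. The remaining call, Egr1 at -0.28 (SE 0.13, DESeq2 adjusted p = 0.0450), was lost with edgeR (adjusted p = 0.127), with total-count scaling and in 5 of the 6 fits that left out a library.

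Taking the LPS response within each pretreatment, 2 members rose and 3 fell after (+)-JQ1, where 58.6% of genes tested were called, 27.6% higher and 31% lower. After IL-10, 5 members rose and 4 fell, where 67% were called, 33.2% higher and 33.8% lower. With total-count scaling 3 rose and 6 fell after IL-10, and the higher share of all calls went from 49.6% to 21%. Egr2, Egr3, Klf2, Klf4 and Klf7 did not pass the test after (+)-JQ1. The Klf4 value in those cells was 0.22, and -0.15 with total-count scaling. With total-count scaling 8 members passed there, 2 higher and 6 lower, and the higher share went from 47.1% to 25.6%. The interaction with JQ1 was called for 7 members, 1 higher and 6 lower, where 41.5% of genes were called, 17.7% higher and 23.8% lower, and with total-count scaling for 7, of which 3 were higher, while the higher share of all calls went from 42.6% to 85.4%. The interaction with IL-10 was called for 3 members, all higher (Egr1, Klf10 and Klf13), where 7.44% of genes were called, 4% higher and 3.44% lower. These 3 calls held with total-count scaling, where the higher share went from 53.7% to 73.6%.

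Of 11 further EGR and KLF genes, 4 averaged 10 or more normalised counts. Klf8, a repressor related to Klf3, rose with LPS from 33.2 ± 4.1 to 563 ± 109 counts (SD, n = 3; log2 4.09, SE 0.23, DESeq2 adjusted p = 2.44e-68). It was 48.6 ± 4.8 with LPS + JQ1 (-3.53, SE 0.22, DESeq2 adjusted p = 1.62e-54) and 508 ± 131 with LPS + IL-10. Klf7 and Klf8 therefore both rose with LPS and were lower with (+)-JQ1, with and without LPS.

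LPS lowered Klf9, a glucocorticoid-responsive gene (-2.18, SE 0.20), Klf11, a relative of Klf10 (-2.43, SE 0.18), and Klf16 (-1.15, SE 0.14), all with a DESeq2 adjusted p of 2.10e-15 or less. Klf16 rose most of the 4 with (+)-JQ1 during LPS, from 139 ± 36 to 555 ± 57 counts (1.99, SE 0.14, DESeq2 adjusted p = 1.26e-44). Klf11 (0.54, adjusted p = 0.0175) and Klf9 (0.50, adjusted p = 0.0459) were also higher by DESeq2. Of the list's 7 genes tested with LPS, 2 rose and 4 fell, and of 7 tested with (+)-JQ1 during LPS, 3 rose and 2 fell. Over all genes tested, 64.5% were called with LPS and 57.3% with (+)-JQ1 during LPS.

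**Figure D4:**
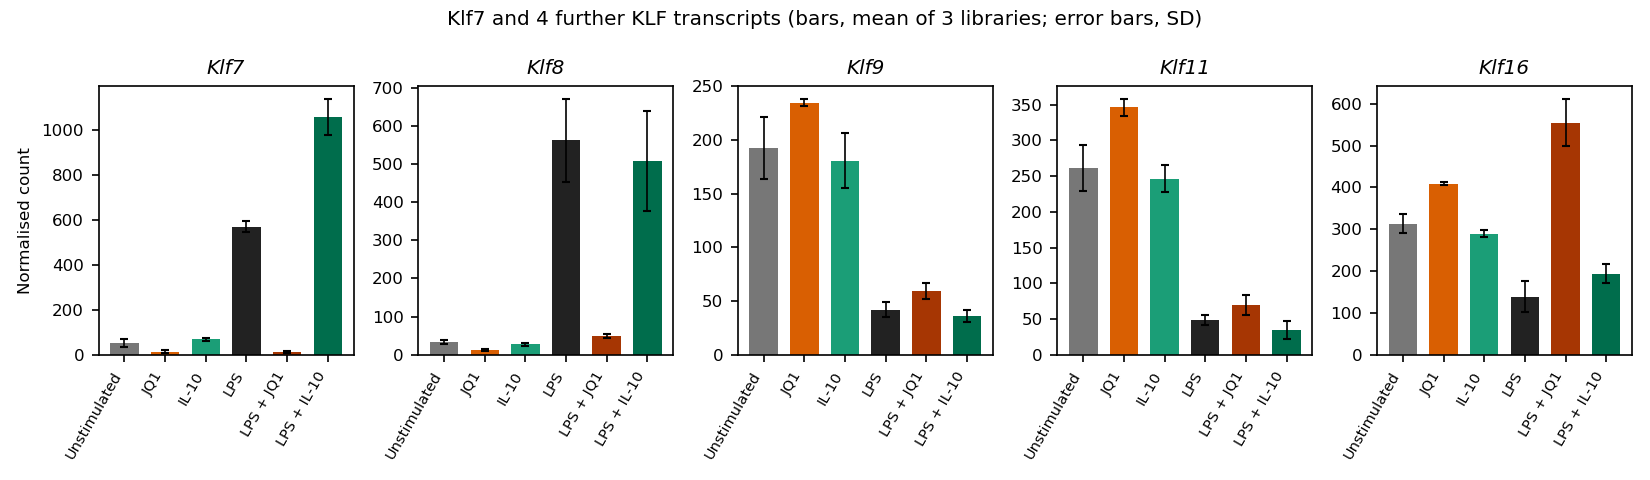
Mean normalised count of Klf7, Klf8, Klf9, Klf11 and Klf16 in the 6 groups (bars, mean of 3 libraries; error bars, SD). Klf7 and Klf8 are high with LPS and LPS + IL-10 and low with LPS + JQ1, whereas Klf16 is highest with LPS + JQ1, at 555.

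Of the 5 Sp factors tested, which bind the same GC boxes, 1 rose with LPS (Sp2, 1.08) and 1 fell (Sp3, -0.62), where 64.5% of all genes were called. In mean TPM Sp2 went from 23.1 to 28.3 with LPS, while Sp1 went from 25.6 to 13.3 and Sp4 from 2.20 to 1.42. In turn (+)-JQ1 raised Sp4 without LPS (0.96) and during it (0.99), when Sp1 (-0.31) and Sp2 (-0.34) were lower and 57.3% of all genes were called. In mean TPM the LPS and LPS + JQ1 groups stood at 13.3 and 13.2 for Sp1 and at 28.3 and 27.8 for Sp2. Among 11 upstream regulators, LPS raised 1 and lowered 8, beside 64.5% of all genes called, and in TPM all 11 means were lower with LPS. The lowered genes included the MEF2 genes Mef2d (-2.71, SE 0.12) and Mef2c (-2.38, SE 0.10) and the ERK5 kinase gene Mapk7 (-1.14, SE 0.12). Each of these had a DESeq2 adjusted p of 6.53e-22 or less. During LPS, (+)-JQ1 raised 3 and lowered 4 of the 11, beside 57.3% of all genes called. Mef2d rose to 1048 ± 146 from 345 ± 55 counts (1.60, SE 0.12), and Elk3, a partner of SRF, fell to 95.2 ± 4.6 from 438 ± 78 (-2.21, SE 0.17). The list's median was 0.10, beside -0.11 over all genes tested.

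Of 8 cofactors of the family, LPS raised 5 and lowered 2, beside 64.5% of all genes called, with Kat2b, an acetyltransferase, at 1.87 (SE 0.09), Nab1, a co-repressor of EGR proteins, at 1.30 (SE 0.09) and Sin3a, a co-repressor of several KLF proteins, at -1.09 (SE 0.07). In TPM the means of Kat2b and Nab1 were still higher with LPS than in Unstimulated cells. Those of Nab2 (51.35 against 61.53), Ctbp1 (71.65 against 103.73) and Crebbp (43.34 against 46.88) were lower, so their direction depends on the scaling. During LPS (+)-JQ1 lowered 6 and raised 1 of them, beside 57.3% of all genes called, with a median of -0.54 against -0.11 over all genes tested. Nab2, the other EGR co-repressor, fell to 529 ± 51 from 1491 ± 158 counts (-1.50, SE 0.12, DESeq2 adjusted p = 1.22e-32), Kat2b fell (-1.45, SE 0.09) and Sin3a rose (1.32, SE 0.07). IL-10 during LPS raised 3 of the 8, beside 8.38% of all genes, with Nab2 at 0.52 (SE 0.12).

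Other immediate-early genes did not share a single direction with Egr1. (+)-JQ1 without LPS raised 5 of 11 and lowered 2, with Jun at 0.99 (SE 0.07) and Ier2 at 1.00 (SE 0.10) higher and Fos at -1.62 (SE 0.15) lower. LPS raised 6 and lowered 4, with Nr4a3 at 7.10 (SE 0.39), Junb at 2.52 (SE 0.13) and Fos at -2.16 (SE 0.16). (+)-JQ1 during LPS lowered Nr4a3 (-4.44, SE 0.29) and Fos (-2.29, SE 0.18) and raised Jun (1.83, SE 0.08), with 3 higher and 5 lower in all. IL-10 during LPS raised 4 of 10 and lowered 2, with Dusp1, a phosphatase of MAP kinases, at 2.10 (SE 0.14), Nr4a3 at -1.61 (SE 0.26) and Ier5 at -1.14 (SE 0.15). Each of these had a DESeq2 adjusted p of 3.99e-08 or less. Of all genes tested, 45.7% were called for (+)-JQ1 without LPS and 64.5% for LPS. The shares were 57.3% for (+)-JQ1 during LPS and 17.2% for IL-10 during LPS. In TPM the mean of Dusp1 was lower with LPS alone (66.4) than in Unstimulated cells (86.3).

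LPS raised 3 and lowered 4 of the 9 reported targets tested, where 31.6% of all genes were higher and 32.9% lower. (+)-JQ1 without LPS raised 3 and lowered 5, where 45.7% of all genes were called. Thbd, a KLF2 target that encodes thrombomodulin, fell with LPS from 326 ± 56 to 5.1 ± 2.7 counts (-6.06, SE 0.46, DESeq2 adjusted p = 6.55e-39) and was at 5.3 ± 1.2 with LPS + JQ1. Thbd was thus low in the LPS + JQ1 group, where Klf2 was high. S1pr1, another KLF2 target, fell (-4.55, SE 0.17), and Cdkn1a, the p21 gene, rose (6.18, SE 0.09). During LPS (+)-JQ1 raised Tgfb1 (1.03, SE 0.10) and lowered Cdkn1a (-0.74, SE 0.09), with 3 higher and 3 lower of the 9 tested, where 57.3% of all genes were called.

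The genes nearest to each member in pattern were found among 8377 genes whose normalised counts averaged 100 or more, by the root mean square difference of log2(group mean count + 1) centred over the 6 groups. Egr2 lay nearest to Vwf (0.242) and Lrmp (0.252), Klf2 to Entpd5 (0.149) and Polr2a (0.189), and Klf4 to Slc30a9 (0.0347) and Scamp2 (0.0442). Klf6 lay nearest to Triobp and Ttc9c, Klf3 to Tmed1 and Surf4, Klf10 to Plekho1 and Tmem37, and Klf13 to Ehmt2 and Mif4gd. Egr1 and Klf7 had more distant neighbours. For Egr1 these were Hmox1 at 0.326 and Atp7a at 0.352, and for Klf7 Pilra at 0.338 and Kdr at 0.452. On TPM values Egr2, Klf2 and Klf4 kept both of these neighbours, and Klf7 and Klf10 kept neither.

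Kdr is among the endothelial markers, and the summed endothelial list moved with Klf7, from 1.27 to 1.5 TPM in Unstimulated, 0.29 to 0.39 in JQ1, 2.13 to 2.36 in IL-10, 7.89 to 9.98 in LPS, 0.04 to 0.28 in LPS + JQ1 and 8.37 to 9.89 in LPS + IL-10 libraries. Of its 3 genes Kdr moved most, at group means of 8.12 TPM in LPS cells, 8.04 in LPS + IL-10 cells and 0.063 in LPS + JQ1 cells, while Pecam1 reached at most 1.18 and Cdh5 at most 0.63 in any library. The part of such cells in the Klf7 result was not tested.

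**Figure D5:**
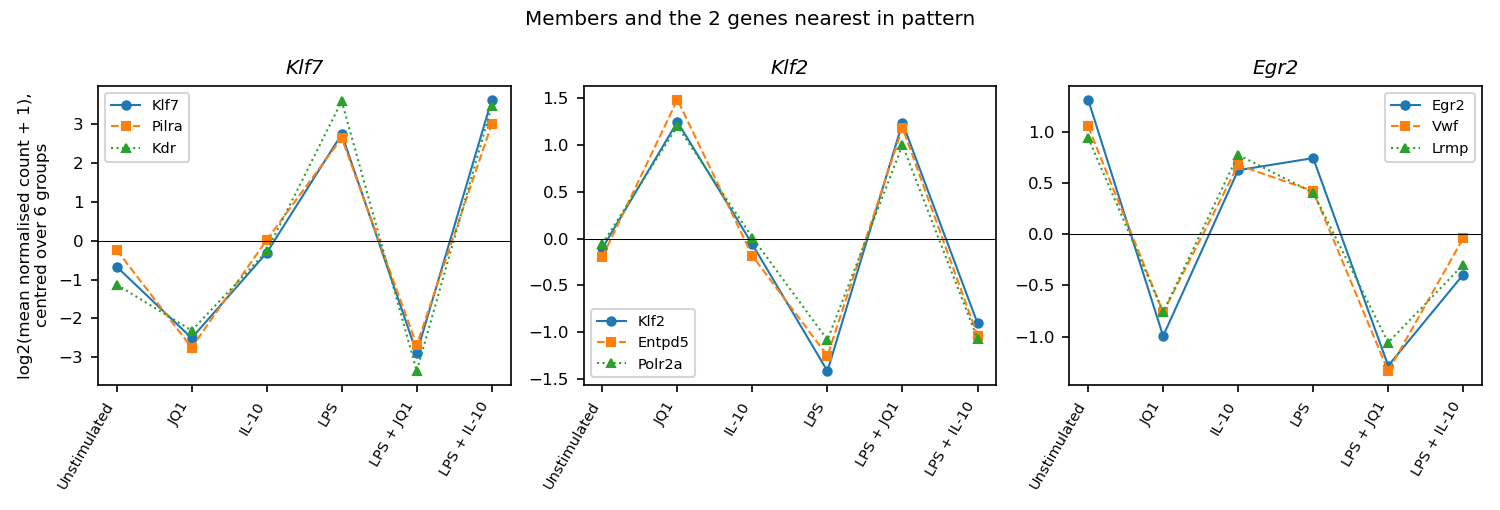
log2(mean normalised count + 1) in the 6 groups, centred over the groups, for Klf7, Klf2 and Egr2 and the 2 genes nearest to each in pattern. Pilra and Kdr follow Klf7 up with LPS and down with LPS + JQ1, at root mean square differences of 0.338 and 0.452.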

How the data were processed

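RNA was measured in 18 libraries, grouped and numbered by their titles. Per the labels and methods, the authors made stranded, ribosomal RNA-depleted, paired-end libraries, used STAR for alignment to mm9 and RSEM 1.2.31 at default settings, which ignore strand, for quantification. The deposited expected counts are RSEM estimates of reads per gene; the deposited TPM values are length-scaled by the authors. Expected counts were rounded; 3 counts, the floor, equal 0.106 to 0.442 CPM, for counting error only. DESeq2 1.42.0 (R 4.3.3) fitted group to all libraries with median-of-ratios factors, and members were called at a Benjamini-Hochberg adjusted p under 0.05 over all genes tested; intervals are 95%. A normalised count is a count divided by its library's size factor. Alternatives used edgeR 4.0.16, limma 3.58.1 on log2(TPM + 1), total-count scaling, effective lengths, a filter at 10 counts in 3 libraries, the replicate number as a block, the lane, the compared groups alone, and fits without each library. Replicates of a group differed by more than sampling noise (chi-square per degree of freedom 3.97 to 28.3). The replicate number was read as the mouse (3 in all), since the labels call the cultures matched; same-numbered deviations correlated at -0.045 to 0.319 on average over 8 comparisons. Lanes followed replicate numbers except in replicate 2, which was on lane 7 without LPS and lane 8 with it. All members are named; from other lists, up to 3 called genes with the largest change and a mean count of at least 100. Members and lists were chosen with earlier results of these data known. The fits were tested on simulated data with few changed genes, balanced in direction, and without the shift in composition seen with LPS. Gene positions are GENCODE vM1 (mm9).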

Additional observations from a re-analysis of the deposited data

Results flagged for a closer look

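The effect of (+)-JQ1 differed with and without LPS for 7 members by the DESeq2 interaction term, on the log2 scale, where a positive value means a higher effect during LPS. The values were -3.81 for Klf7, -1.65 for Egr1, 1.30 for Klf2, -1.11 for Klf6, -1.06 for Klf3, -0.58 for Klf13 and -0.56 for Klf4. Those of Klf13 and Klf4 were -0.02 and -0.01 with total-count scaling and no longer passed the test, and that of Klf4 was lost in 4 of the fits without a library (Unstimulated replicate 1 or 3, JQ1 replicate 2, LPS replicate 2). In turn, total-count scaling called those of Egr2 (0.83, DESeq2 adjusted p = 0.00214) and Klf10 (0.68, DESeq2 adjusted p = 0.00493), as did limma on TPM. With median-of-ratios factors these were 0.27 and 0.13 and did not pass.

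The effect of IL-10 differed with and without LPS for 3 members, at 0.74 for Klf13, 0.70 for Klf10 and 0.63 for Egr1. None of the 3 was moved detectably by IL-10 without LPS, where their DESeq2 values were 0.09, -0.01 and -0.10.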

How the results depend on the processing

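Over 1510 member fold-changes recomputed under alternatives, 1436 kept their call, 35 lost and 31 gained a call and 8 reversed. A reversal was counted only where a fit called the change. Sign changes without a call in either fit stand among the 1436, such as Klf4 for LPS after (+)-JQ1 (0.22, and -0.15 with total-count scaling). The effective-length offset and the count filter changed no call of 100 each, and edgeR changed 3 of 100. The cause was not tested. Reversals came with total-count scaling and limma on TPM: the LPS response of Klf4 (-0.14, -0.032), and the LPS response of IL-10-pretreated cells for Egr1 (-0.64, -0.48), Klf4 (-0.15, -0.042) and Klf13 (-0.56, -0.45). Total-count scaling called 8 in place of 5 members for LPS after (+)-JQ1. It moved the higher share of all calls to 26.8% from 48% for (+)-JQ1 without LPS, 64.9% from 42.5% for (+)-JQ1 during LPS, 71.1% from 48.7% for IL-10 during LPS, 25.6% from 47.1% and 21% from 49.6% for LPS after (+)-JQ1 and IL-10, 61.2% from 42.9% between the pretreatments, and 85.4% from 42.6% and 73.6% from 53.7% for the interactions with JQ1 and IL-10. IL-10 without LPS called 358 genes, 230 with edgeR, 171 with limma and 168 to 374 in fits without 1 library, with the largest falls without IL-10 replicate 1 (168) or Unstimulated replicate 3 (230). Members called there were 1, and 2 without Unstimulated replicate 1. IL-10 during LPS called 1968 genes and 1089 in a fit to the groups compared alone. With the replicate number as a block 2 members gained a call during LPS, Klf4 with (+)-JQ1 (0.28, DESeq2 adjusted p = 0.0430) and Klf6 with IL-10 (-0.27, 0.0232), and no other call of a member changed. limma gave no value for Egr3, which failed its TPM filter.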
